A study of Mus musculus with 12 samples.

Results

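The interferon response genes described here are 44 genes that interferons are known to induce, found by gene symbol among the 27825 genes of the deposited table. All 44 were found and all 44 passed the filter on low values. The measurements are bulk RNA-seq of yellow fluorescent cells sorted from 2 tissues of male mice. The tissues were mesentery, the fold of tissue through which gut vessels run, and the epididymal fat pad. All groups shared the genotype ROSA26-eYFP+/+ Cdh5-CreERT2+, in which a tamoxifen-activated Cre recombinase driven by the endothelial gene Cdh5 switches on the fluorescent reporter, so cells stay marked once recombined. All mice ate tamoxifen food from 6 weeks of age for 2 weeks, and from 8 weeks were kept for 12 to 13 weeks on normal chow (5.8% fat) or on food with 60% fat, called high fat here. Tissue of 6 mice was combined for each sample and digested with actinomycin D, a blocker of transcription, in the mix. The 4 groups are mesentery on chow, mesentery on high fat, epididymal fat on chow and epididymal fat on high fat, each with 3 libraries whose titles carry the letters A, B and C. Because the protocol mentions 2 independent replicates, some libraries of the same group could share a source, and p-values then measure only the spread between libraries.

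The depth was 8348897 reads assigned to genes in mesentery chow C, the shallowest library, and 25397963 in the deepest, epididymal high fat C. Mitochondrial genes took 2.50% to 5.94% of reads in epididymal fat and 5.67% to 20.6% in mesentery, the highest being chow A. Of the 44 members, 42 had a mean of at least 50 normalized counts.

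Interferons are secreted signals of antiviral defence. Type I interferons and interferon gamma bind separate receptors on the cell surface, whose Janus kinases phosphorylate STAT proteins. Complexes of STAT proteins, joined by IRF9 in the type I response, then bind the interferon-stimulated response element (ISRE) of target genes, and STAT dimers bind the gamma-activated site (GAS). The products sense viral nucleic acid, block viral entry and replication, restrict intracellular microbes and raise the supply of peptides for MHC class I. Endothelial cells respond to both kinds of interferon, and a low level of these transcripts is found in many tissues without infection.

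On both diets the members were, by their median, lower in epididymal fat than in mesentery. The test by diet called 1 of them, Oas1a in epididymal fat, and that call passed in 13 of 22 alternative settings. Values are normalized counts, which are read counts divided by a factor for each library, and they are listed in the order A, B, C. They carry no correction for gene length, so levels are compared between libraries and not between genes. Changes are differences of log2(normalized count + 1), with folds on that scale, and a gene is called at an adjusted p under 0.05 in limma, a linear model fitted across all 22238 genes tested. On chow 16 of the 44 members were called lower in epididymal fat and 1 was called higher. Over all genes tested, 5.47% were called lower and 7.32% higher in that comparison. On high fat 19 members were called lower, against 3.43% of all genes. In that comparison 0 members were called higher by limma, at an unadjusted p under 0.05, by edgeR or by DESeq2, where limma called 4.91% of all genes higher. The median difference of the 44 members was -0.69 on chow and -0.88 on high fat, beside -0.08 and 0.06 over all genes. All 3 epididymal libraries lay below all 3 mesentery libraries for 25 members on chow and 31 on high fat, where 12.7% and 11.2% of all genes did so. Each of these statements is on the deposited scaling, and the scaling to endothelial markers given further on moves the medians to above 0 when Cldn5 is left out. The accounts by role that follow are on the deposited scaling as well.

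**Figure D1:**
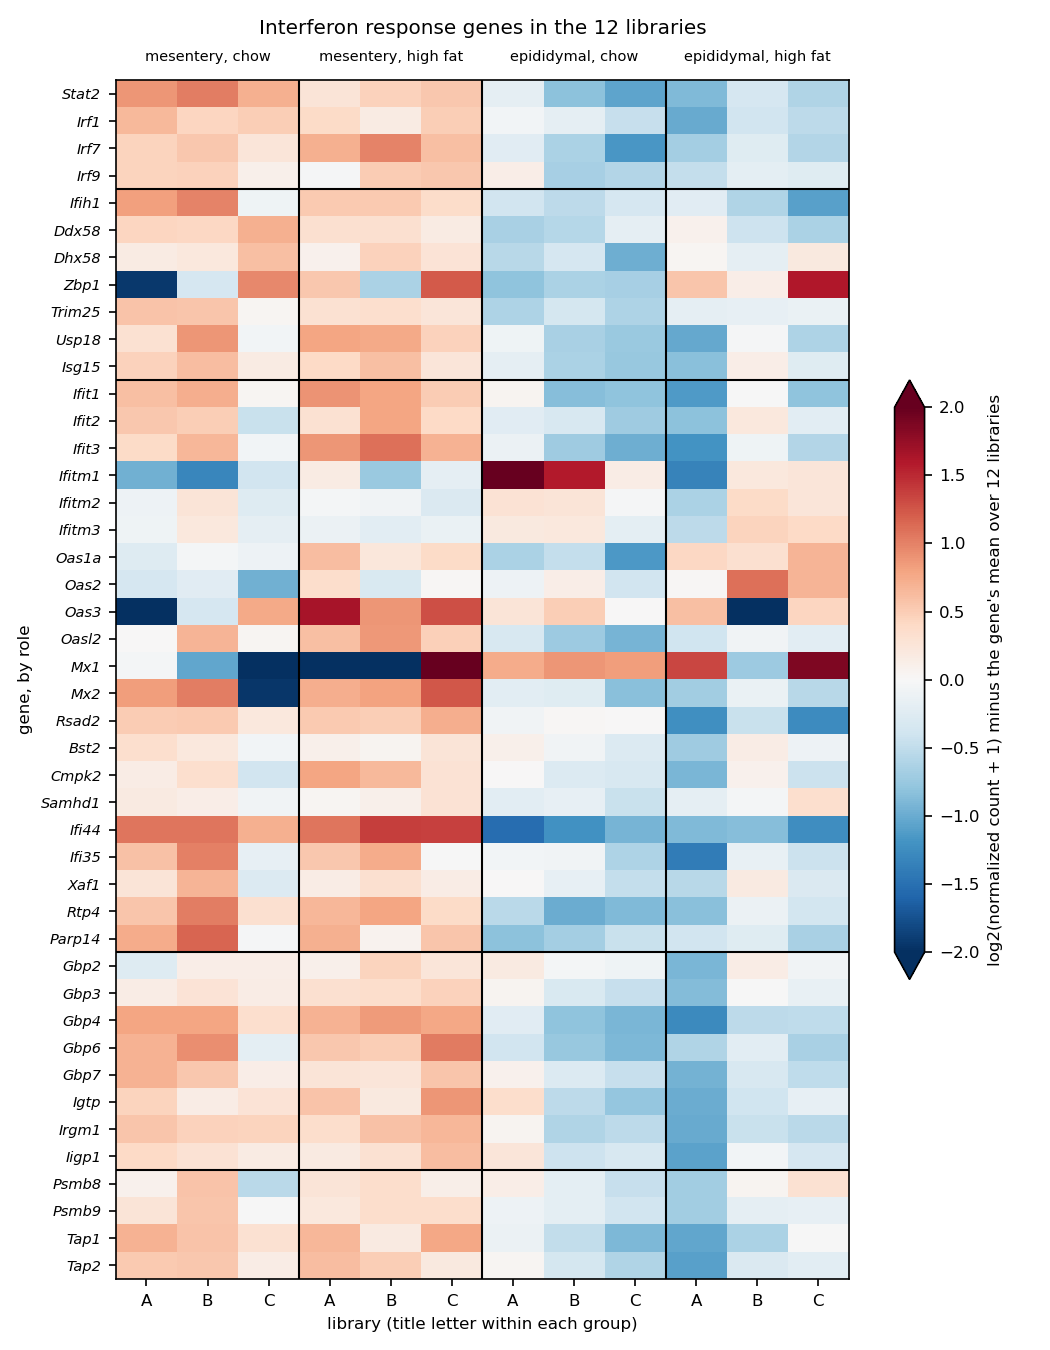
Level of each of the 44 interferon response genes in each of the 12 libraries, as log2(normalized count + 1) minus the gene's mean over the 12 libraries (colour, cut at 2 in either direction), with genes in rows by role and libraries in columns by group. Most rows are above their mean in the mesentery libraries other than chow C and below it in the 6 epididymal libraries. Ifitm1, Oas1a, Oas2, Oas3, Mx1 and Zbp1 are among the rows that depart from this. Mesentery chow C lies near the mean, with a median of 0.04 over the 42 members with a mean of at least 50.

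Within groups the members moved together by library. Mesentery chow C was the lowest of its group for 33 of the 44 members, epididymal chow C for 31 and epididymal high fat A for 33. Epididymal high fat A was the lowest of all 12 libraries for 24 members, and its endothelial marker mean, 2533 normalized counts, was also the lowest, where the others had 3290 to 7251. Without that library the members' median on high fat was -0.73 instead of -0.88. Mesentery high fat showed no such library, with A, B and C lowest for 15, 14 and 15 members. Each library also carries a number in its description. Mesentery chow C and epididymal chow C are numbered 87, and epididymal high fat A is 88. Mesentery high fat A is also 88, and all other libraries are numbered 50 to 53. The low libraries thus share a number range. What the numbers stand for is not stated, and their part in this pattern was not tested.

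The sequences just upstream of the start sites of 6 members are shown because these genes mark the range of patterns below: the most negative called tissue difference (Ifi44), differences on both diets (Irgm1), on chow (Isg15) or on high fat (Rsad2), and the members called in the opposite direction or by diet (Ifitm1, Oas1a). RefSeq promoter windows on GRCm38.p6, 300 bases from 250 before to 50 after the start site, matched 32 of the 44 members. Each line gives the 150 bases before the start site, 5′ to 3′ on the gene's strand, and capitals mark the ISRE core GAAANNGAAA on either strand.
Ifi44: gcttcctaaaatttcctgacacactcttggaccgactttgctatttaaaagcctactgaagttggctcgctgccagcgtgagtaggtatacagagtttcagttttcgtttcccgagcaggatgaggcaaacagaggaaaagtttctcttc
Irgm1: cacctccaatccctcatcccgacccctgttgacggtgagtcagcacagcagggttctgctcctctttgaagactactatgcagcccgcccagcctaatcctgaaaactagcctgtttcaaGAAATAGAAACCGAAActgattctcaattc
Isg15: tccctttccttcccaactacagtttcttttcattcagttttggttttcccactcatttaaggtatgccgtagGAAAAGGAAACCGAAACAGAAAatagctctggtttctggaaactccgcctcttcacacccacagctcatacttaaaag
Rsad2: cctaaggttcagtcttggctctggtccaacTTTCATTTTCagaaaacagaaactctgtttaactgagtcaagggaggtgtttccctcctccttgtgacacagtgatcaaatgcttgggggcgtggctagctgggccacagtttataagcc
Oas1a: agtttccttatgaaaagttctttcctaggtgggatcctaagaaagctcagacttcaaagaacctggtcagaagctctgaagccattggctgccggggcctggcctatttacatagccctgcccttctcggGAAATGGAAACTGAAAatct
Ifitm1: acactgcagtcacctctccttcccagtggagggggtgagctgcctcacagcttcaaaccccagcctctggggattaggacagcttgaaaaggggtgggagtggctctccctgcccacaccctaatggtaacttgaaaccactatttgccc
These stretches lie at chr3:151749911-151750060 on the minus strand (Ifi44), chr11:48871421-48871570 on the minus strand (Irgm1) and chr4:156200819-156200968 on the minus strand (Isg15). The others lie at chr12:26456453-26456602 on the minus strand (Rsad2), chr5:120907526-120907675 on the minus strand (Oas1a) and chr7:140967926-140968075 on the plus strand (Ifitm1). In Irgm1, Isg15 and Oas1a the capitals are overlapping cores. The Irgm1 cores begin 30 and 24 bases before the start, those of Oas1a 20 and 14 bases, and those of Isg15 78, 72 and 66 bases. Rsad2 holds a single core in the reverse direction, beginning 120 bases before its start, and the windows of Ifi44 and Ifitm1 hold no exact core. Over the whole windows of 300 bases the core was found in 17 of the 32 members (53.1%), against 3.99% of 27025 genes. Within the 150 bases before the start, the stretch printed here, it was found in 13 of the 32 (40.6%), against 1.85% of all genes. The GAS core TTCNNNGAA, which may overlap an ISRE core, was found in 10 of the 32 whole windows (31.2%), against 9.55% of all genes. The members called lower in epididymal fat on either diet held the ISRE core in 10 of 17 whole windows and the others in 7 of 15. A match of letters is a description and says nothing of binding in these cells, and Tap1 and Psmb9 share part of their windows because their start sites face away from each other.

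Of the 4 transcription factors of the pathway, 3 were called lower in epididymal fat on both diets. Stat2, a subunit of the type I interferon complex, measured 1488, 1643 and 1319 normalized counts in mesentery on chow and 960.5, 1113 and 1178 on high fat, against 715, 454 and 386 in epididymal fat on chow and 436, 638 and 533 there on high fat. Every epididymal library was below every mesentery library. The difference was -1.56 (SE 0.23, adjusted p = 0.000669) on chow, 2.95-fold lower, and -1.03 (SE 0.23, adjusted p = 0.0149) on high fat. Irf7, the factor that amplifies type I interferon production, measured 1834, 1956 and 1581 normalized counts in mesentery on chow and 2203, 2687 and 2050.2 on high fat, against 1145, 862 and 597 in epididymal fat on chow and 836, 1133 and 899.6 there on high fat. The groups did not overlap between tissues on either diet, and the differences were -1.09 (SE 0.23, adjusted p = 0.00671) and -1.28 (SE 0.23, adjusted p = 0.00382). Irf1, a transcription factor that interferon gamma induces, measured 3993, 3422 and 3593 normalized counts in mesentery on chow and 3337, 2868 and 3576 on high fat, against 2447, 2255 and 1856 in epididymal fat on chow and 1268, 1959 and 1767 there on high fat. It was 1.69-fold lower on chow (adjusted p = 0.0202) and 1.98-fold lower on high fat (adjusted p = 0.00656), again with no overlap. Irf9, the DNA-binding subunit of the type I complex, differed by -0.71 (SE 0.23, adjusted p = 0.0639) and -0.65 (SE 0.23, adjusted p = 0.111) and was not called.

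The 7 sensors and feedback genes were all below 0 in the chow comparison, and 5 of them were called lower. Ifih1, which encodes the RNA sensor MDA5, measured 492, 555 and 262 normalized counts in mesentery on chow and 397, 401 and 359.7 on high fat, against 214, 194 and 219.6 in epididymal fat on chow and 236, 182 and 131 there on high fat. Its tissue groups did not overlap, with differences of -0.99 (SE 0.29, adjusted p = 0.0394) on chow and -1.11 (SE 0.29, adjusted p = 0.0313) on high fat. Ifih1 was the only gene of these 7 called lower in both comparisons. Ddx58, which encodes the RNA sensor RIG-I, measured 737, 728 and 898 normalized counts in mesentery on chow and 686, 683 and 609.6 on high fat, against 349, 368 and 484 in epididymal fat on chow and 581, 408 and 351 there on high fat. It differed by -0.98 (SE 0.21, adjusted p = 0.00843) on chow and by -0.59 (SE 0.21, adjusted p = 0.115) on high fat, so the high fat comparison was not called although no library overlapped. Dhx58, a helicase related to both sensors, measured 194, 199.8 and 262 normalized counts in mesentery on chow and 182, 236 and 207 on high fat, against 117, 136 and 86.8 in epididymal fat on chow and 176, 152 and 197 there on high fat. It was 1.93-fold lower on chow (adjusted p = 0.0277), and on high fat its tissue groups overlapped (difference -0.25, adjusted p = 0.705). Trim25, a ubiquitin ligase that acts on RIG-I, measured 1352, 1346 and 940.5 normalized counts in mesentery on chow and 1126, 1153 and 1073 on high fat, against 592, 716 and 595 in epididymal fat on chow and 808, 812 and 832 there on high fat. Its differences were -0.92 (SE 0.17, adjusted p = 0.00357) and -0.45 (SE 0.17, adjusted p = 0.142), with every epididymal library below every mesentery library on both diets. Isg15, the ubiquitin-like protein that is attached to other proteins after interferon, measured 1197, 1331 and 974 normalized counts in mesentery on chow and 1140.1, 1321 and 1027 on high fat, against 762, 559 and 514 in epididymal fat on chow and 485, 949.7 and 731 there on high fat. It was 1.92-fold lower on chow (adjusted p = 0.0229), and on high fat it differed by -0.73 with adjusted p = 0.0893. Usp18, which removes ISG15 and damps the type I receptor, measured 826, 1242 and 642 normalized counts in mesentery on chow and 1152, 1135 and 927 on high fat, against 628, 427 and 401 in epididymal fat on chow and 328, 659.8 and 436 there on high fat. Usp18 was called lower on high fat, -1.23 (SE 0.29, adjusted p = 0.0203), and missed the threshold on chow, -0.87 (SE 0.29, adjusted p = 0.0681). Zbp1 varied widely within groups and its tissue differences, -0.27 and 0.39, were not called.

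Among the 21 antiviral effectors 4 were called lower on chow, 1 was called higher, and 7 were called lower on high fat. Ifi44, a cytoplasmic protein induced by type I interferon, had the most negative difference of any member that was called, in both tissue comparisons. It measured 1335, 1334 and 1039 normalized counts in mesentery on chow and 1338, 1651 and 1647 on high fat, against 219, 273 and 332 in epididymal fat on chow and 344, 351 and 267 there on high fat. The highest epididymal library was below the lowest mesentery library by a wide margin, and Ifi44 was 4.52-fold lower on chow, -2.18 (SE 0.20, adjusted p = 2.09e-05), and 4.82-fold lower on high fat, -2.27 (SE 0.20, adjusted p = 1.71e-05). Rtp4, a chaperone of receptor trafficking that interferon induces, measured 3450.2, 4759 and 2931 normalized counts in mesentery on chow and 3702, 4061 and 3052 on high fat, against 1611, 1179 and 1275 in epididymal fat on chow and 1309, 2169 and 1816 there on high fat. The tissues did not overlap, and the differences were -1.44 (SE 0.23, adjusted p = 0.00133) and -1.05 (SE 0.23, adjusted p = 0.0144). Oasl2, related to the oligoadenylate synthetases, measured 861, 1371 and 873 normalized counts in mesentery on chow and 1294, 1555 and 1185 on high fat, against 679.8, 513 and 448 in epididymal fat on chow and 648, 808 and 735 there on high fat. Its differences were close on the diets, -0.91 (SE 0.22, adjusted p = 0.0165) and -0.88 (SE 0.22, adjusted p = 0.0279). Parp14, an enzyme that attaches ADP-ribose to proteins, measured 1042, 1397 and 612 normalized counts in mesentery on chow and 1022, 657 and 915 on high fat, against 352, 387 and 459 in epididymal fat on chow and 476, 529 and 396 there on high fat. It was called lower on chow, -1.28 (SE 0.28, adjusted p = 0.00837), and missed the threshold on high fat, -0.87 (SE 0.28, adjusted p = 0.0722).

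On high fat the called effectors also included Ifit1, Ifit3, Rsad2 and Cmpk2. Ifit1 encodes a protein that recognises foreign RNA by its end, and Ifit3 encodes a related protein. Ifit1 measured 839, 921 and 567 normalized counts in mesentery on chow and 1034, 954 and 790.5 on high fat, against 574, 306 and 317 in epididymal fat on chow and 252, 552 and 315 there on high fat. Ifit3 measured 1709, 2089.5 and 1264 normalized counts in mesentery on chow and 2426, 2811 and 2123 on high fat, against 1204, 801 and 665 in epididymal fat on chow and 576, 1236 and 874 there on high fat. Every epididymal high fat library was below every mesentery high fat library for both genes, and the difference was -1.38 (SE 0.31, adjusted p = 0.0167) for Ifit1 and -1.51 (SE 0.29, adjusted p = 0.00634) for Ifit3. On chow they missed the threshold, with -0.99 (SE 0.31, adjusted p = 0.0563) and -0.94 (SE 0.29, adjusted p = 0.0513). Rsad2, which encodes viperin, an enzyme that makes a chain-terminating nucleotide, measured 3694, 3720.3 and 3023 normalized counts in mesentery on chow and 3722, 3652 and 4284 on high fat, against 2488, 2633 and 2628 in epididymal fat on chow and 1106, 1910.2 and 1091 there on high fat. All epididymal high fat libraries were below all other libraries, and Rsad2 was 2.93-fold lower than in mesentery on high fat, -1.55 (SE 0.21, adjusted p = 0.000537). On chow the difference was -0.42 (SE 0.21, adjusted p = 0.231). Cmpk2, a mitochondrial nucleotide kinase, measured 700.3, 800.1 and 487 normalized counts in mesentery on chow and 1099, 994 and 773 on high fat, against 638, 524 and 507 in epididymal fat on chow and 337, 671 and 470.0 there on high fat. It was 1.99-fold lower on high fat (adjusted p = 0.0332) and differed by -0.23 on chow (adjusted p = 0.651).

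The Ifitm genes, whose products sit in membranes and hinder viral entry, did not follow this pattern. Ifitm1 measured 163, 129 and 244 normalized counts in mesentery on chow and 357, 189.9 and 281 on high fat, against 1876, 963 and 352 in epididymal fat on chow and 126, 371 and 377 there on high fat. Epididymal fat on chow was above all other groups except that its library C, at 352, was within the range of both high fat groups. Ifitm1 was called 4.97-fold higher in epididymal fat on chow, 2.31 (SE 0.55, adjusted p = 0.0142), and on high fat it differed by -0.04 (SE 0.55, adjusted p = 0.989). The Ifitm1 call on chow was lost without mesentery A or B or without epididymal A or B, with adjusted p up to 0.0752. Ifitm2 measured 10578, 13522 and 9454 normalized counts in mesentery on chow and 10997, 10804 and 9217 on high fat, against 13757, 13473 and 11086 in epididymal fat on chow and 7305, 14720.4 and 13447 there on high fat. Ifitm3 measured 34202, 41728 and 31856 normalized counts in mesentery on chow and 33226, 31249 and 32979.6 on high fat, against 41432, 41666 and 31759 in epididymal fat on chow and 25165, 49293 and 47609 there on high fat. Their tissue groups overlapped, with differences of 0.20 and 0.13 for Ifitm2 and 0.09 and 0.26 for Ifitm3, none of them called.

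The other effectors were not called between tissues. Bst2 (tetherin, which holds budding virus at the surface), Samhd1 (which depletes nucleotides), Xaf1, Ifi35 and Ifit2 differed by between -1.09 and -0.10 over both diets, the widest being Ifi35 on high fat with adjusted p = 0.079. Oas1a and Oas2 encode synthetases of oligoadenylate, which activates RNase L. Oas1a differed by -0.62 (SE 0.20, adjusted p = 0.0653) on chow and 0.06 (SE 0.20, adjusted p = 0.937) on high fat. Oas2 differed by 0.39 and 0.58, and its groups overlapped. Oas3, Mx1 and Mx2 had few reads. Oas3 had 0 to 26 reads in a library and Mx1, a GTPase that traps viral particles, had 0 to 75, where a floor of 3 reads is between 2.12 and 4.22 normalized counts. The 75 Mx1 reads were in mesentery on high fat C, whereas libraries A and B of that group had 0. Mx2 had 8 to 113 reads. The fitted tissue differences on chow and high fat were 1.12 and -1.93 for Oas3, 2.02 and 1.27 for Mx1, and -0.39 and -1.39 for Mx2. They depend on the pseudocount of 1, none was called, and no fold is given.

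Of the 8 guanylate binding proteins (GBP) and immunity related GTPases, which attack the vacuoles of intracellular microbes, 3 were called lower on chow and 5 on high fat. All 8 were below 0 on high fat, with a median of -1.01. Gbp4 measured 3950.1, 3949 and 2872 normalized counts in mesentery on chow and 3708, 4129 and 3887 on high fat, against 1952, 1308 and 1207 in epididymal fat on chow and 941, 1593 and 1597 there on high fat. The epididymal libraries were all below the mesentery libraries, 2.44-fold lower on chow, -1.29 (SE 0.24, adjusted p = 0.00358), and 2.92-fold lower on high fat, -1.54 (SE 0.24, adjusted p = 0.00165). Gbp6 measured 618, 728 and 331 normalized counts in mesentery on chow and 556, 535 and 781 on high fat, against 293, 224 and 204 in epididymal fat on chow and 249.6, 329.5 and 243 there on high fat. It differed by -1.15 (SE 0.29, adjusted p = 0.0184) and -1.18 (SE 0.29, adjusted p = 0.0244), with no overlap. Irgm1, a regulator of the other immunity related GTPases, measured 3148, 2958 and 2937 normalized counts in mesentery on chow and 2749.6, 3231 and 3389 on high fat, against 2244, 1417 and 1489 in epididymal fat on chow and 1071, 1584 and 1473 there on high fat. Its differences were -0.84 (SE 0.21, adjusted p = 0.0165) on chow and -1.196 (SE 0.21, adjusted p = 0.00316) on high fat. Gbp7 and Igtp were called on high fat. Gbp7 measured 3015, 2699 and 2037 normalized counts in mesentery on chow and 2222, 2206 and 2724 on high fat, against 1963, 1531 and 1342 in epididymal fat on chow and 960.1, 1487 and 1308 there on high fat. Igtp measured 1969.9, 1615 and 1754 normalized counts in mesentery on chow and 2149, 1652 and 2682 on high fat, against 1841, 1006 and 849 in epididymal fat on chow and 726, 1098 and 1291 there on high fat. Their high fat differences were -0.95 (adjusted p = 0.0173) and -1.07 (adjusted p = 0.0387), and their chow differences -0.68 (adjusted p = 0.0577) and -0.61 (adjusted p = 0.213). Gbp2, Gbp3 and Iigp1 were not called, and their differences lay between -0.85 and 0.02. Many Gbp, Ifit, Oas, Ifitm and Irg genes have close paralogs, and how reads shared by paralogs were counted is not given in the sources used here, so the split between such genes is uncertain.

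The 4 genes of MHC class I peptide processing were below 0 in both comparisons. Tap1 and Tap2 form the transporter that carries peptides into the endoplasmic reticulum. Tap1 measured 1283, 1175 and 971 normalized counts in mesentery on chow and 1254, 891 and 1356 on high fat, against 728, 560.4 and 423 in epididymal fat on chow and 381, 506 and 781 there on high fat. It was 2.04-fold lower on chow, -1.03 (SE 0.28, adjusted p = 0.0265), and 2.16-fold lower on high fat, -1.11 (SE 0.28, adjusted p = 0.026). Tap2 measured 2413, 2439.8 and 1861 normalized counts in mesentery on chow and 2596, 2369 and 1934 on high fat, against 1725, 1321 and 1114 in epididymal fat on chow and 796, 1382 and 1462 there on high fat. It was called on high fat, -0.96 (SE 0.25, adjusted p = 0.0294), and differed by -0.70 (SE 0.25, adjusted p = 0.0828) on chow, with no overlap in either comparison. The immunoproteasome subunits Psmb8 and Psmb9 differed by -0.21 and -0.49 on chow and -0.36 and -0.66 on high fat and were not called.

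**Figure D2:**
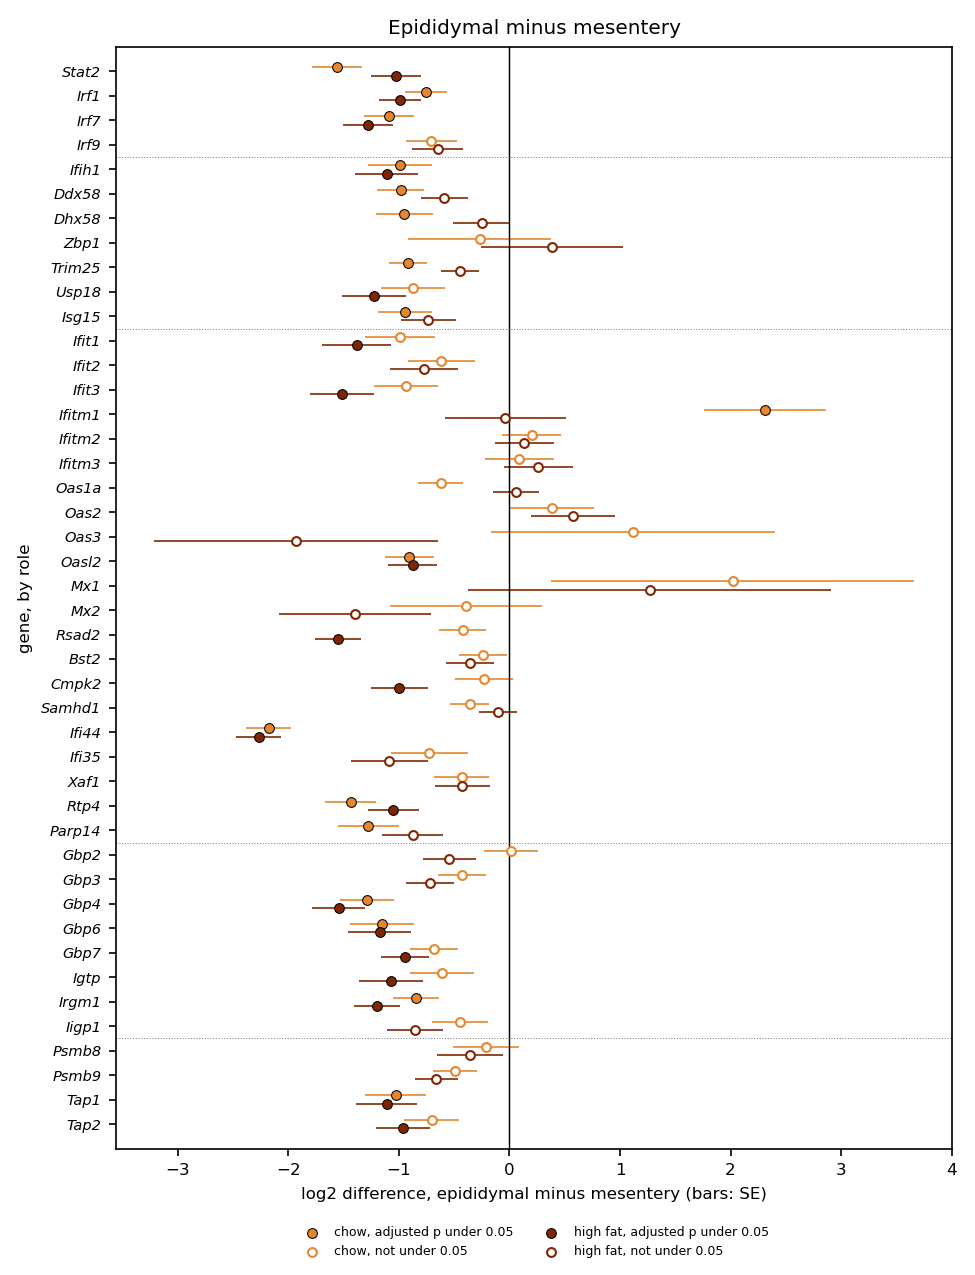
Difference between epididymal fat and mesentery for each member (horizontal axis, log2, epididymal minus mesentery; points are limma estimates and bars their SE), on chow (orange) and high fat (dark red), with filled points for adjusted p under 0.05 and genes by role. Filled points lie left of 0, with Ifi44 farthest at -2.18 and -2.27, except Ifitm1 on chow at 2.31; scaling to endothelial markers other than Cldn5 puts several of the others above 0.

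The 16 and 19 members called lower on the 2 diets had 11 in common: Stat2, Irf1, Irf7, Ifih1, Oasl2, Ifi44, Rtp4, Gbp4, Gbp6, Irgm1 and Tap1. These are 68.8% of the chow list and 57.9% of the high fat list, 24 members were called lower on at least one diet, and 20 on neither. The 2 lists come from different libraries, but a gene called on one diet and not on the other is not shown to differ between them, and the test of that difference follows with the diet. The counts moved with single libraries. Without mesentery A, B or C the chow comparison called 9, 10 and 21 members lower. Without epididymal A, B or C it called 17, 9 and 8 lower. Without mesentery A, B or C the high fat comparison called 9, 8 and 14 members lower. Without epididymal A, B or C it called 11, 19 and 9 lower. Ifi44 on both diets, Stat2 and Rtp4 on chow and Rsad2 on high fat remained called in each of 22 alternative settings, and Gbp4 in 21 of 22 on each diet.

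The endothelial genes themselves also differed between the tissues. Of 12 markers, 6 were called lower in epididymal fat on chow and 8 on high fat, with medians of -0.92 and -1.05. Emcn, a surface sialomucin of capillary and venous endothelium, differed by -1.72 (SE 0.28, adjusted p = 0.0013) and -2.53 (SE 0.28, adjusted p = 0.000103), while Cldn5, a tight junction protein, was called higher, 4.25 (SE 0.48, adjusted p = 8.46e-05) and 2.50 (SE 0.48, adjusted p = 0.00587). Cdh5, whose promoter drives the Cre, differed by 0.02 and 0.06 and was not called. None of the 12 was at 0 in a whole group. They summed to 118424 to 171386 normalized counts in mesentery on chow and 113108 to 132320 on high fat, and to 85102 to 103210 and 46699 to 89341 in epididymal fat. In these bulk samples fewer cells of a type and less RNA per cell cannot be told apart. When the columns were rescaled to the geometric mean of the 12 markers, a choice made after the data were seen, 6 members were called lower and 2 higher on chow, and 4 lower and 5 higher on high fat. Over all genes that scale called 2.45% lower and 15.5% higher on chow, and 1.12% lower and 28.1% higher on high fat. That scaling moved the median of all genes to 0.29 and 0.85, and the members' medians were -0.30 and -0.06. With the 11 markers other than Cldn5 the calls were 3 lower and 7 higher on chow and 2 lower and 10 higher on high fat, with members' medians of 0.12 and 0.24 and medians of 0.69 and 1.14 over all genes. Over all genes 1.56% were then called lower and 30.2% higher on chow, and 0.854% lower and 40.3% higher on high fat. Ifi44, Stat2 and Rtp4 on chow and Ifi44 and Rsad2 on high fat were called lower on both of these scales. Ifitm2 was called higher on both scales and both diets, by 0.60 to 1.25, and on high fat so were Ifitm3, Oas1a, Oas2 and Samhd1. By role, the list medians without Cldn5 on chow were -0.11 for the transcription factors and -0.13 for the sensors and 0.17 to 0.39 for the other 3 lists, and on high fat all 5 were above 0, at 0.10 to 0.52. Relative to the median of all genes the members' median was -0.62 on chow and -0.94 on high fat as deposited, and -0.57 and -0.90 on the scale without Cldn5. Rescaling a library shifts all its genes by nearly the same log2 amount. This relative value could therefore hardly move, and its closeness between the scales is no test of the tissue difference.

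**Figure D3:**
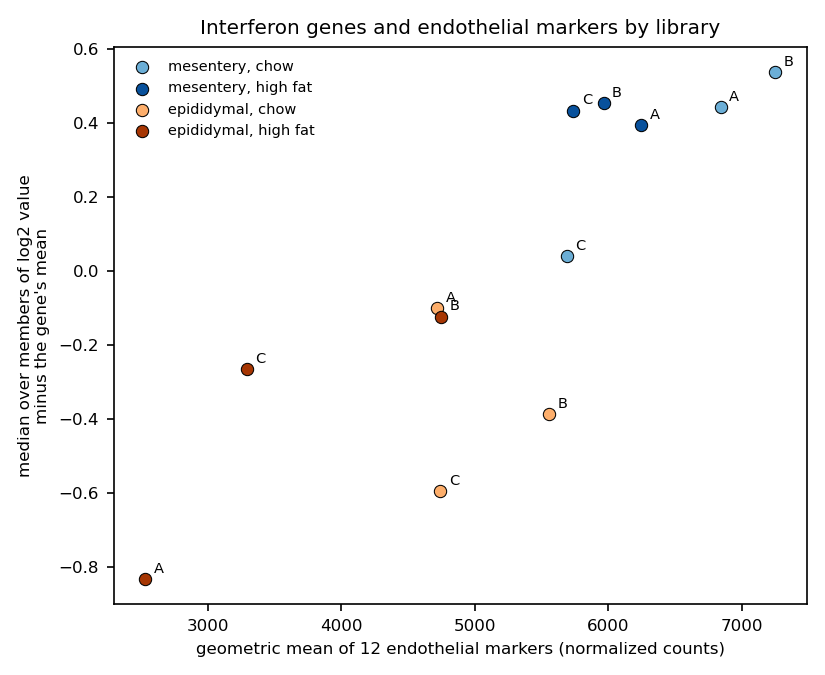
Each point is a library, with the geometric mean of 12 endothelial markers in normalized counts (horizontal) and the median over 42 members with a mean of at least 50 of log2(normalized count + 1) minus the gene's mean (vertical); letters name the libraries and colours the groups. The mesentery libraries lie at 0.04 to 0.54 and the epididymal libraries at -0.83 to -0.10, and epididymal high fat A is lowest on both axes.

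Markers of other cell types also moved with tissue and diet, and their part in the members' differences was not tested. The 12 macrophage markers summed to 1644 to 8198 normalized counts in mesentery on chow and 4657 to 25150 on high fat, and to 6419 to 88301 and 139130 to 350123 in epididymal fat. Macrophage markers were called higher in epididymal fat in 5 of 12 cases on chow and 8 of 12 on high fat, the opposite direction to most members, and none was at 0 in a whole group. The 8 fibroblast markers summed to 4642 to 10114 in the mesentery libraries and 18859 to 62836 in the epididymal ones. The 8 mural cell markers summed to 1455 to 4243 in mesentery and 6689 to 26109 in epididymal fat, and 8 adipocyte markers to 64264 to 87225 in epididymal fat on chow against 4449.6 to 15007 in the other 3 groups. The 5 red blood cell genes were at 218 to 507 in mesentery and 42178 to 59418 in epididymal fat. Genes of pancreatic acinar cells summed to 22403 to 149609 in mesentery and 183 to 550.0 in epididymal fat. The 10 dendritic cell markers summed to 4827 to 60723 in mesentery and 6612 to 423950 in epididymal fat. Most of the highest sum, in epididymal high fat C, was Cd74 (284747) and H2-Ab1 (135623). Between tissues 7 of the 10 were above 0 on chow and 8 on high fat, but 0 were called higher. Zbtb46 was called lower in epididymal fat on chow (-1.02) and high fat (-1.196), and Clec9a on chow (-1.47). T and NK cell markers reached at most 4826, B cell markers 7000, neutrophil markers 525 and mesothelial markers 625, and Cd8a and Wt1 were at 0 in mesentery on chow, as was Prss2 of the acinar genes in epididymal fat on high fat.

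Few members were called for the high fat diet. In mesentery 0 of 44 were called by limma in either direction, beside 0.00899% of all genes called higher and 0.0045% lower. At an unadjusted p under 0.05 there was 1, Oas1a, at 0.54 (SE 0.20, adjusted p = 0.702). The edgeR and DESeq2 tests on the recovered reads also called 0. The members' median change was 0.11, beside -0.0023 over all genes. The 3 libraries on high fat lay above the 3 on chow for 6 of the 44 members and below for 2, where 4.47% and 5.14% of all genes did so. The 6 were Irf7, Ifit3, Oas1a, Oas3, Ifi44 and Gbp3, and the 2 were Stat2 and Ddx58. Stat2 had the most negative estimate, -0.45 (SE 0.23, adjusted p = 0.857), followed by Ddx58 at -0.25 (SE 0.21, adjusted p = 0.95) and Parp14 at -0.18 (SE 0.28, adjusted p = 0.971). The most positive were Oas3, on few reads, at 2.14 (SE 1.28, adjusted p = 0.898), Mx2 at 0.96 (SE 0.69, adjusted p = 0.92) and Zbp1 at 0.81 (SE 0.64, adjusted p = 0.936). Ifit3 differed by 0.56 (SE 0.29, adjusted p = 0.868) and Irf7 by 0.37 (SE 0.23, adjusted p = 0.899).

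In epididymal fat 1 member, Oas1a, was called higher on high fat and 0 were called lower by limma. At an unadjusted p under 0.05 there were 2 lower members, Rsad2 and Ifitm1, and on the recovered reads DESeq2 called 2 lower and edgeR 0. Over all genes tested 0.418% were called higher and 0.13% lower. Oas1a measured 348, 388 and 244 normalized counts on chow and 716, 676 and 864 on high fat, which is 327 ± 74.4 and 752 ± 99.0 (mean ± SD, n = 3). The groups did not overlap and the change was 1.22 (SE 0.20, adjusted p = 0.0171), 2.33-fold higher. In mesentery Oas1a measured 453, 524 and 505 on chow and 831, 635 and 701 on high fat, also without overlap. The epididymal Oas1a call passed in 13 of 22 alternatives. It was lost without epididymal chow A or C (adjusted p = 0.0639 and 0.0704), without epididymal high fat A or C (0.0635 and 0.14), and in edgeR's quasi-likelihood test (0.0868). In limma it was also lost with the columns scaled to the same total (adjusted p = 0.0606) or by TMM (0.0772), with only the libraries numbered 50 to 53 (0.0976) and with only the 2 groups compared (0.054). On the same-total scale the single member called was Rsad2, lower on high fat at -1.11 (adjusted p = 0.0433), and 0 members were called higher. In the same comparison the 12 macrophage markers had a median difference of 2.71, with 9 above chow without overlap, 10 at an unadjusted p under 0.05 and 0 called by limma. The 8 fibroblast markers had a median of 1.61, with 2 called higher (Lum and Col3a1) and 6 above chow without overlap. The 12 endothelial markers had a median of -0.63, with 11 below 0, 6 at an unadjusted p under 0.05 and 0 called by limma. The 8 mural cell and 8 adipocyte markers were all below 0, with medians of -1.03 and -1.63 and 1 and 3 called lower. The part of these markers in the Oas1a change was not tested.

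Rsad2, Ifitm1, Dhx58 and Zbp1 passed an unadjusted p under 0.05 in epididymal fat without being called. Rsad2 measured 2488, 2633 and 2628 on chow and 1106, 1910.2 and 1091 on high fat, with no overlap, a difference of -0.97 (SE 0.21, adjusted p = 0.0652). Ifitm1 measured 1876, 963 and 352 and 126, 371 and 377, where chow C lay inside the high fat range, and the difference was -1.72 (SE 0.55, adjusted p = 0.281). Zbp1, a sensor of Z-form nucleic acid that can start cell death, measured 75.2, 85.1 and 82.7 and 194, 145 and 405, with no overlap and a difference of 1.46 (SE 0.64, adjusted p = 0.651). Library C of the high fat group, the highest for Zbp1, also had the highest macrophage sum, 350123 normalized counts. In mesentery Zbp1 measured 34.2, 105 and 258 and 194, 84.5 and 310.3, and library C was again the highest for Zbp1 and for the macrophage sum on both diets. In each of these groups library C was also the highest for the dendritic cell and the T and NK cell sums. In epididymal fat on chow the macrophage sums were 11631, 88301 and 6419, while Zbp1 stayed at 75.2, 85.1 and 82.7. The part of any cell type in the Zbp1 values was not tested. Dhx58 differed by 0.64 (SE 0.26, adjusted p = 0.546), Trim25 by 0.37 (SE 0.17, adjusted p = 0.725) and Oas2 by 0.72 (SE 0.38, adjusted p = 0.845). Oas3, on few reads, differed by -0.91 (SE 1.28, adjusted p = 1). Members lay without overlap above chow in 4 cases (Dhx58, Zbp1, Trim25 and Oas1a) and below in 1 (Rsad2), against 6.93% and 6.57% of all genes. The members' median was -0.03, beside 0.10 over all genes. On the endothelial scale 5 members were called higher on high fat (Samhd1, Rtp4, Trim25, Oasl2 and Oas1a), and without Cldn5 also Isg15, where the median of all genes moved to 0.64 and 0.69. On these scales 2.62% and 3.73% of all genes were called higher, and 0.0809% and 0.0764% lower.

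**Figure D4:**
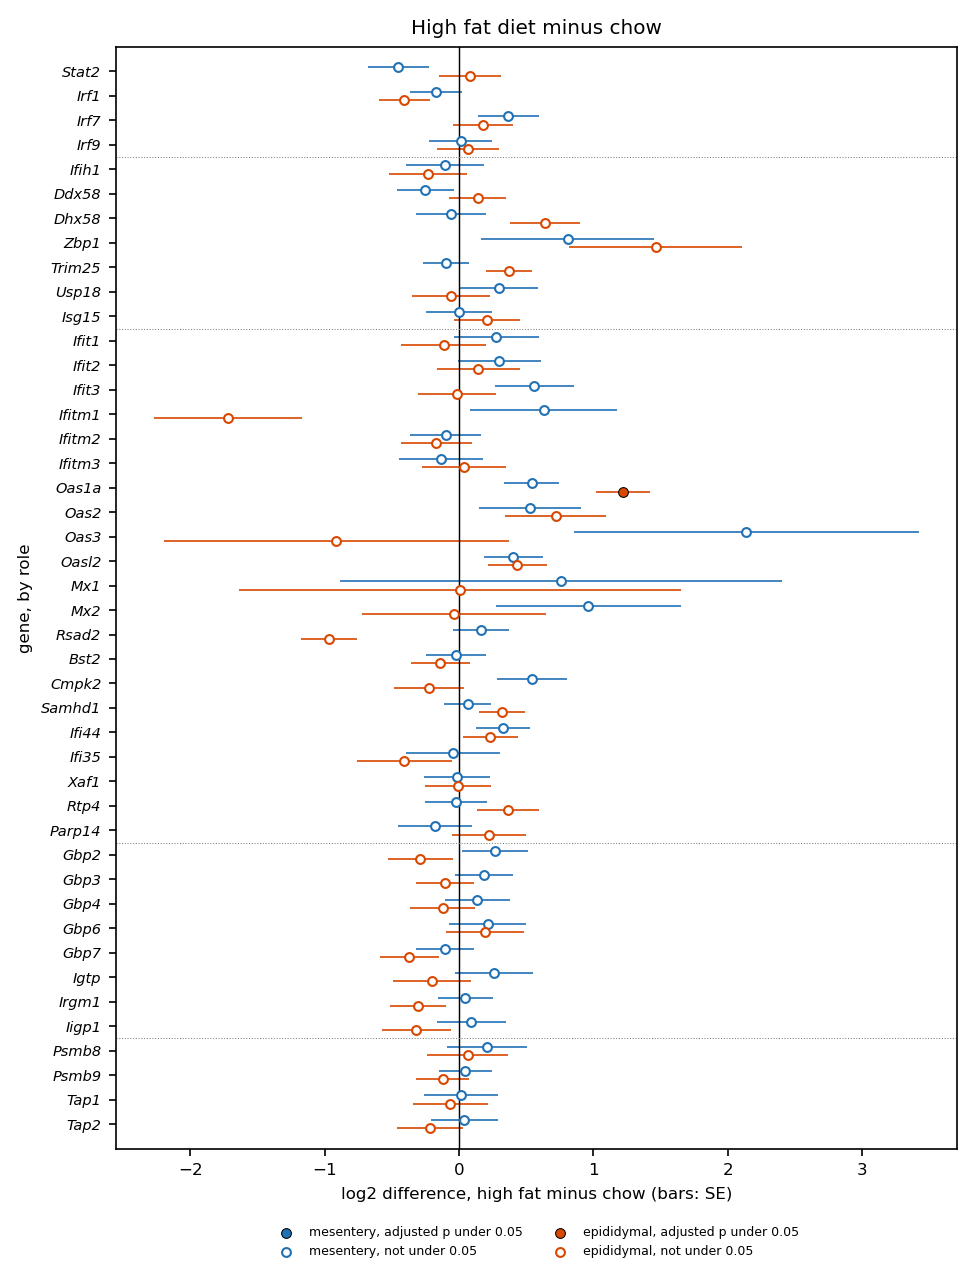
Difference between high fat and chow for each member (horizontal axis, log2, high fat minus chow; points are limma estimates and bars their SE), in mesentery (blue) and epididymal fat (red), with filled points for adjusted p under 0.05 and genes by role. The single filled point is Oas1a in epididymal fat at 1.22 and all other points are open.

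No member passed the test of whether the diet change differed between the tissues: 0 were called in either direction, beside 0% of all genes higher and 0.0045% lower. At an unadjusted p under 0.05 there were 3, and edgeR and DESeq2 also called 0. Rsad2 changed by 0.16 with diet in mesentery and -0.97 in epididymal fat, a difference of -1.13 (SE 0.30, adjusted p = 0.459). Ifitm1 changed by 0.63 and -1.72, a difference of -2.35 (SE 0.78, adjusted p = 0.741). Oas1a changed by 0.54 and 1.22, a difference of 0.68 (SE 0.29, adjusted p = 0.997). With Rsad2 and Ifitm1, the 3 most negative estimates included Oas3, on few reads, at -3.05 (SE 1.81, adjusted p = 1). With Oas1a, the 3 most positive included Dhx58 at 0.70 (SE 0.37, adjusted p = 1) and Zbp1 at 0.65 (SE 0.91, adjusted p = 1). The same test asks whether the tissue difference changed with diet, so the members called on 1 diet were not shown to differ between diets.

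**Figure D5:**
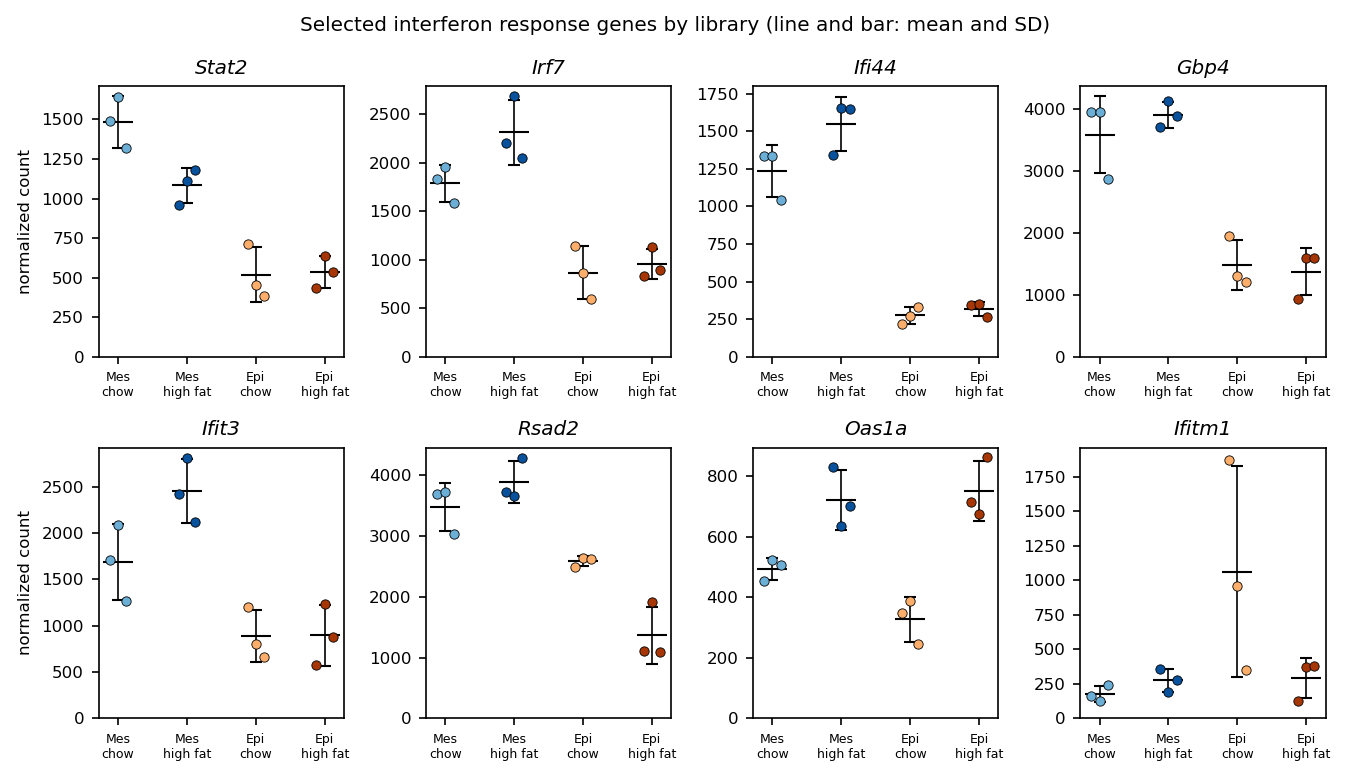
Normalized counts of 8 members in the 12 libraries (vertical axes start at 0; points are libraries, horizontal lines group means and bars SD). In Stat2, Irf7, Ifi44 and Gbp4 all epididymal points lie below the mesentery points, Rsad2 is lowest in epididymal fat on high fat, Oas1a is lowest in epididymal fat on chow, and Ifitm1 is highest in epididymal fat on chow with 1876, 963 and 352.

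The genes around the members in the pathway were followed in lists of their own. Their calls and differences are on the deposited scaling and were not summarised on the endothelial scales. Without Cldn5 that scale moved the members' medians between tissues from -0.69 to 0.12 on chow and from -0.88 to 0.24 on high fat. The sign of a moderate difference in these lists may therefore depend on the scaling. Of 20 interferon ligand genes only Ifng matched a row, with 0.00, 2.69 and 2.82 and 0.00, 1.39 and 13.8 normalized counts in mesentery on chow and high fat and 10.2, 8.69 and 1.02 and 2.25, 0.00 and 48.8 in epididymal fat, and it was below the filter. No gene in the deposited table has fewer than 51 reads over the 12 libraries. The ligands without a row could therefore have had few reads or none. Of 20 receptors, kinases, STATs and regulators, 2 were called lower and 1 higher in epididymal fat on chow, and 2 lower on high fat. These are 15% and 10% of the list, close to the 12.8% and 8.34% of all genes called in either direction. Irf2, a factor that competes with IRF1, was lower on both, -0.99 (SE 0.18, adjusted p = 0.00313) and -0.65 (SE 0.18, adjusted p = 0.0436). Ifngr2, a chain of the interferon gamma receptor, was lower on chow, -0.74 (SE 0.20, adjusted p = 0.0244), and Ifnar2, a chain of the type I receptor, on high fat, -0.84 (SE 0.24, adjusted p = 0.0459). The gene called higher was Ptpn6, a phosphatase of blood cells, 4.49 (SE 1.35, adjusted p = 0.0443).

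Of 11 further genes of nucleic acid sensing, Sting1, the adaptor of the cytosolic DNA sensor, was higher in epididymal fat on both diets. Sting1 measured 335, 349 and 555 normalized counts in mesentery on chow and 318, 583 and 682 on high fat, against 1356, 1236 and 982 in epididymal fat on chow and 927, 1562 and 1651 there on high fat. The differences were 1.55 (SE 0.31, adjusted p = 0.00521) and 1.41 (SE 0.31, adjusted p = 0.014). On the deposited scaling their sign was opposite to that of the RNA sensors Ifih1 and Ddx58, of which Ddx58 was not called on high fat. On the endothelial scale without Cldn5 the median of the 7 sensors and feedback genes on high fat was 0.52. Tbk1, the kinase downstream of these sensors, was lower on chow, -1.004 (SE 0.19, adjusted p = 0.00322). Of 48 other interferon-induced genes 16 were called lower and 3 higher on chow, and 15 lower and 2 higher on high fat, with medians of -0.62 and -0.63. Ifi213, of the same family as Ifi207 and Ifi211, had the most negative difference, -4.82 (SE 0.39, adjusted p = 7.34e-06) and -3.75 (SE 0.39, adjusted p = 7.16e-05). It measured 872, 853 and 487 normalized counts in mesentery on chow and 436, 772 and 619 on high fat, against 15.7, 25.2 and 35.7 in epididymal fat on chow and 54.0, 27.3 and 54.5 there on high fat. Cxcl9, a chemokine for T cells, was higher on both diets, 4.40 (SE 0.45, adjusted p = 4.78e-05) and 2.72 (SE 0.45, adjusted p = 0.00259), and measured 143, 179 and 280.2 normalized counts in mesentery on chow and 799, 152 and 388 on high fat, against 4023, 4164 and 4074 in epididymal fat on chow and 1793, 3286 and 2306 there on high fat. Ifi27l2a and Lgals3bp were higher on chow, by 2.77 (adjusted p = 0.000123) and 0.70 (adjusted p = 0.031). With diet in epididymal fat 2 of the 48 were called, Ifi207, 2.58 (SE 0.48, adjusted p = 0.0306), and Ifi211, 1.37 (SE 0.24, adjusted p = 0.0237), both higher on high fat. Of 16 MHC class I genes only Nlrc5, the transactivator of that locus, was called between tissues, with a difference on chow of -1.18 (SE 0.29, adjusted p = 0.0182). Calls between tissues on chow and high fat made up 6.25% and 0% of the MHC class I list. They made up 18.2% and 9.09% of the 11 sensing genes and 39.6% and 35.4% of the 48 other induced genes. Over all genes 12.8% and 8.34% were called.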

How the data were processed

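Bulk RNA-seq of sorted cells was measured in 12 libraries, 3 for each tissue and diet, grouped by their titles. The authors deposited 1 table of normalized counts, a signal of at least 0 for each gene. The submitters' processing notes name STAR 2.7.9a, featureCounts of Subread, DESeq2 1.34.0 and mm39, and the annotation and use of strand are not given in the sources used here. Every value was a whole number of reads times 1 step per library (100% of values, relative tolerance 1e-06), and the steps equalled median-of-ratios size factors, so reads could be recovered. Totals ranged from 8348897 to 25397963 reads. The floor of 3 reads concerns counting only. Each SE is limma's moderated estimate from the spread between libraries.

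The test was limma 3.58.1 (R 4.3.3) with a mean-variance trend on log2(value + 1), over 22238 genes with a mean of at least 10, with 4 group means in 1 fit and 5 contrasts. Adjustment was by Benjamini and Hochberg over all genes tested, at a threshold of 0.05. The code was tested on simulated data. Members called in any contrast are named with the value in every library, members under 0.05 unadjusted in a diet contrast with their change, and the 3 largest changes each way in each contrast. The members, lists and marker genes were chosen with earlier results of these data known. Gene names came from the table's own columns. Alternatives were other pseudocounts, filters, scalings and fits, edgeR 4.0.16, DESeq2 1.42.0, blocks and leaving out each library. Promoter windows of 32 members came from RefSeq on GRCm38.p6, not the build of the reads. One gene of the pathway lists is not reported here.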

Additional observations from a re-analysis of the deposited data

How the results depend on the processing

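The direction of the members' median tissue difference was the same under each setting except the endothelial scale without Cldn5. The number of members called moved more. Array weights, whose estimation did not converge, called 4 members for diet in mesentery, 7 for diet in epididymal fat, 41 between tissues on chow and 2 for the difference of the diet effects. For diet in epididymal fat (1 called) the count was 2 with a mean of at least 50 or with the number range as a covariate, 3 in DESeq2, 5 and 6 on the endothelial scales with and without Cldn5, and 0 with TMM scaling, in edgeR, with only the libraries numbered 50 to 53 and with only the 2 groups compared; the same-total scaling called 1 lower (Rsad2) in place of 1 higher (Oas1a), and leaving out 1 library gave 0 to 2. Between tissues on chow (17 called) it was 9 with TMM, 11 in edgeR, 8 and 10 on the endothelial scales, 23 with a mean of at least 50 or with only libraries 50 to 53, 24 with the number range as a covariate, 25 in DESeq2, and 9 to 22 without 1 library. On high fat (19 called) it was 7 with TMM, 6 in edgeR, 9 and 12 on the endothelial scales, 12 with only libraries 50 to 53, 23 with a mean of at least 50, 26 in DESeq2, 27 with the number range as a covariate or array weights, 28 with the same-total scaling, and 8 to 19 without 1 library. The same-total scaling moved the median of all genes to 0.13 for diet in mesentery and -0.12 between tissues on high fat. Without Cldn5 the endothelial scale reversed Irf1 on chow (0.062) and, on high fat, Gbp7 (0.17), Oasl2 (0.24), Stat2 (0.084), Igtp (0.043), Irf1 (0.12), Cmpk2 (0.12), Rtp4 (0.061), Tap1 (0.0025) and Tap2 (0.15); the cause was not tested. Libraries share letters and description numbers, but the labels do not say that same-numbered libraries share mice. Between tissues the deviations of same-numbered libraries correlated at 0.03, 0.53 and 0.58 on chow and -0.15, 0.15 and -0.12 on high fat, and not every library correlated best with its own number. A replicate block for the number called 20 members on chow and 22 on high fat and 0 for the difference of the diet effects, and a replicate block for the letter called 0 and 1 for diet in mesentery and epididymal fat. Oas3, Mx1 and Mx2 had few reads, which limits the precision of their differences.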
